A study of Rattus norvegicus with 5 samples.

Results

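Krt79 keratinocytes are keratinocytes rich in transcripts of Krt79, a keratin of the upper hair follicle. They were picked from single-cell RNA sequencing of rat skin, and numbered 710 of 19500 keratinocytes and of 43408 cells kept in 5 libraries. A keratinocyte was a barcode with at least 1% of its unique molecular identifiers (UMIs, counts of single captured transcripts) from Krt1, Krt5, Krt10, Krt14, Krt15 and Krt17. That share had to be above the share of the fibroblast genes Col1a1, Col3a1 and Dcn, and no UMI of the leukocyte gene Ptprc was allowed. A Krt79 keratinocyte also had at least 0.1% of UMIs from Krt79, under 0.2% from S100a8 and S100a9, under 2 UMIs of the cell cycle genes Mki67 and Top2a together, and under 2 UMIs of Lhx2, a factor of follicle stem cells. The values of these genes therefore chose the cells, and they are given below as a description. The 11793 keratinocytes that passed every limit but that on Krt79 are called the other keratinocytes.

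The upper hair follicle joins the surface epidermis to the follicle proper and holds the infundibulum, the junctional zone and the sebaceous duct. Its cells mature and cornify towards the canal, much as epidermal cells do towards the surface. In mouse skin Krt79-positive cells form the hair canal during development and regrowth, and cells of this region can move into the epidermis after wounding.

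The skin came from Sprague-Dawley rats, male by the study's methods, with 1 library of each group. The groups are irradiated skin taken 7, 14, 28 and 60 days (d) after exposure, and control skin with no irradiation. Per the study's methods the exposure was a single dose of electrons to shaved buttock skin, and dead cells were removed by sorting before droplet capture. The methods do not describe the 60 d library, so its exposure is known from its label alone. Age and dose are not in the labels and stand only in the study's methods, and the labels do not say how many animals a library holds.

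With 1 library a group there was no replicate, which leaves groups untested, and a difference between times cannot be told apart from a difference between animals or preparations. Levels are UMIs summed over cells and given as counts per 1000000 UMIs of those cells (CPM), with exact 95% intervals. The intervals cover counting error only. Total depth lay between 70073362 and 139566348 UMIs per library. Krt79 keratinocytes had a median of 13551.5 UMIs in control, 10585 on day 7, 23712 on day 14, 6144.5 on day 28 and 11617 on day 60. The largest share of UMIs given by a single Krt79 keratinocyte was 1.17% in control, 4.01% on day 7, 13.7% on day 14, 9.69% on day 28 and 6.08% on day 60.

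Krt79 keratinocytes were scarcer in each irradiated library than in control. There were 430 in control, 83 on day 7, 12 on day 14, 52 on day 28 and 133 on day 60. Their share of keratinocytes was 9.56% in control (exact Clopper-Pearson interval 8.72 to 10.5), 4.65% on day 7 (3.72 to 5.73), 0.569% on day 14 (0.294 to 0.992), 1.11% on day 28 (0.833 to 1.46) and 2.06% on day 60 (1.73 to 2.44). This share was lowest on day 14, and the intervals on days 14 and 28 overlap while the day 60 interval lies above both. Of the Krt79 and other keratinocytes together, which all met the remaining limits, it was 14.7% in control and 7.85% on day 7. It was 2.10% on day 14 (1.09 to 3.64), 1.69% on day 28 (1.27 to 2.22) and 2.73% on day 60 (2.29 to 3.23). On that measure day 28 was lowest, and the day 14 interval overlaps those of days 28 and 60. Irradiated minus control, the difference in the share of all keratinocytes was -4.91 percentage points on day 7 (-6.21 to -3.54), -8.99 on day 14, -8.45 on day 28 and -7.50 on day 60. As a share of every kept cell they made up 4.24% in control, 0.734% on day 7, 0.275% on day 14, 0.576% on day 28 and 1.56% on day 60.

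**Figure D1:**
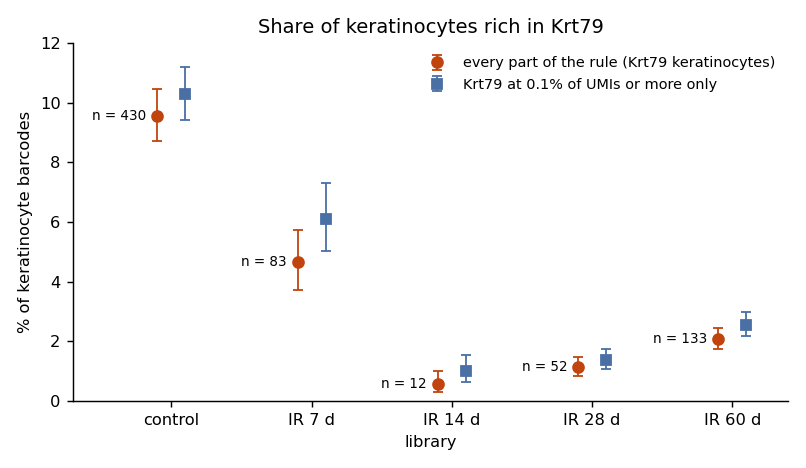
Share of keratinocyte barcodes (vertical axis, %) that were Krt79 keratinocytes (circles, number of cells beside them) or that passed the Krt79 limit before the limits on S100a8 and S100a9, cell cycle genes and Lhx2 (squares), in each library (horizontal axis). Bars are exact 95% binomial intervals, which cover counting error only, and each of the 4 irradiated libraries lies below control in both shares.

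Keratinocytes over the Krt79 limit alone were 10.3% of keratinocytes in control, 6.10% on day 7, 0.996% on day 14, 1.37% on day 28 and 2.55% on day 60. That is the order of the Krt79 keratinocytes' share of all keratinocytes. The limit on S100a8 and S100a9, genes of stressed keratinocytes and neutrophils, took 9 of the 21 such cells on day 14, 4 of 64 on day 28, 3 of 164 on day 60 and none in control and on day 7. It bears on the 14 d share most, since 61.9% of keratinocytes there had S100a8 and S100a9 at or above the limit, against 0.0667% in control. The Lhx2 limit was not met by 19 in control, 23 on day 7, 0 on day 14, 2 on day 28 and 13 on day 60. A further 143 kept barcodes passed the Krt79 limit without counting as keratinocytes, 56 of them in control and 43 on day 7, where fibroblast genes took as large a share as keratins in 32 and 38.

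Of the marker genes named for this cell type, Krt79, Cst6 and Sbsn set the cells apart and Fxyd3 did not. Krt79 itself, which was selected, stood at 6027 CPM in control, 7817 on day 7, 2561 on day 14, 4175 on day 28 and 4289 on day 60, against 49.7, 38.8, 16.3, 7.49 and 13.1 CPM in the other keratinocytes. Cst6, cystatin E/M, an inhibitor of the cysteine proteases of cornification, had 4804, 23566, 4765, 810 and 7376 CPM in the same order, against 521, 1501, 418, 155 and 189 CPM. On day 14 a single cell gave 86.4% of these UMIs, and without it the level of Cst6 was 701 CPM. Sbsn, suprabasin, a secreted protein of differentiating keratinocytes, had 6844, 8038, 3156, 3270 and 3631 CPM, against 697, 1763, 908, 1047 and 671 CPM. Fxyd3, a regulator of the sodium pump, had 2405, 2593, 3838, 1942 and 2673 CPM, against 2651, 2380, 2948, 1727 and 2265 CPM. The ratio of Krt79 keratinocytes to other keratinocytes in the 4 libraries with at least 50 Krt79 keratinocytes was 9.22, 15.7, 5.24 and 39.0 for Cst6 and 0.907, 1.09, 1.12 and 1.18 for Fxyd3 (control, 7, 28 and 60 d).

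**Figure D2:**
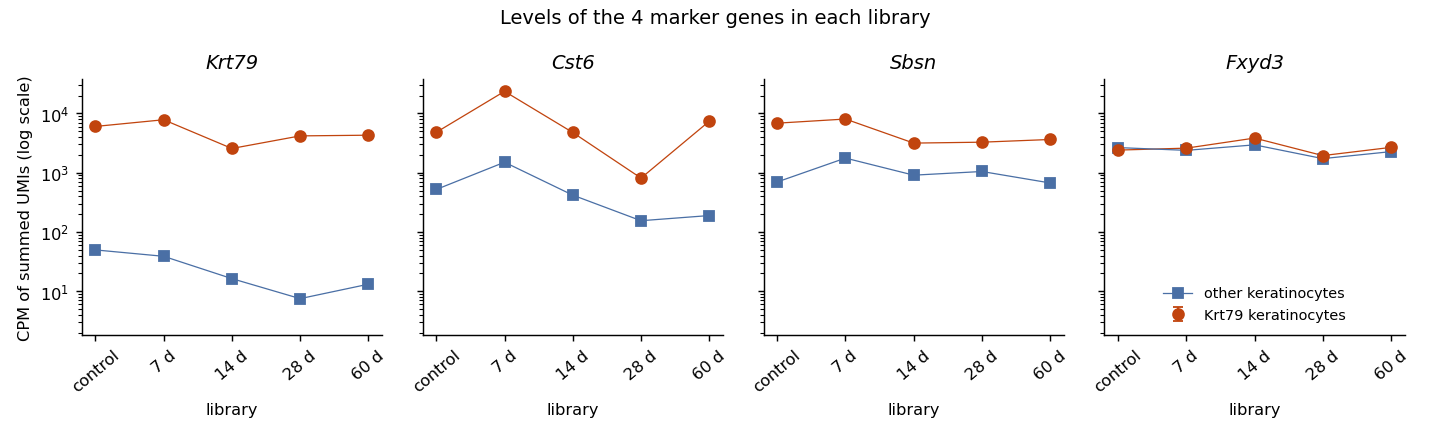
Levels of Krt79, Cst6, Sbsn and Fxyd3 (vertical axis, CPM of summed UMIs, log scale) in Krt79 keratinocytes (circles, exact Poisson 95% bars, mostly smaller than the symbol) and other keratinocytes (squares) of each library (horizontal axis). Cst6 of the Krt79 keratinocytes spans 810 to 23566 CPM while Fxyd3 stays between 1942 and 3838 CPM and close to the other keratinocytes.

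Cells near the Krt79 limit differed by library. In control, 52 cells with 0.1 to 0.15% of UMIs from Krt79 had 3396 CPM of Cst6 and 3637 CPM of Sbsn, against 1053 and 2000 CPM in the 81 cells with 0.05 to 0.1%. On day 7 the 7 cells just inside had 3995 CPM of Cst6, against 12397 CPM in the 19 just outside, so cells rich in Cst6 continued past the limit there. On day 60 the 30 cells just inside had 1113 CPM of Cst6, against 952 CPM in the 48 just outside. Transcripts of Krt79 were also caught in cells that should lack it. A Krt79 UMI was present in 15.1% of fibroblasts in control, 11.8% on day 7, 1.28% on day 14, 1.19% on day 28 and 4.90% on day 60. Only 12 of the 710 cells met the limit with a single Krt79 UMI, 7 of them on day 60.

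Across all genes, the contrast with the other keratinocytes used the cells' own selection and is a description. Of 1750 genes at 50 CPM or more in either class of each of the 4 libraries, 22 (1.26%) were at least 2-fold higher in Krt79 keratinocytes in every library and 22 (1.26%) at least 2-fold lower. Without the day 7 library 34 were lower in each, and without the day 28 library 47 were higher in each. The highest by their median ratio included Crabp2, which carries retinoic acid to the nucleus. It had 205, 719, 657, 102 and 205 CPM (control, 7, 14, 28 and 60 d), against 20.5, 70.4, 181, 55.7 and 27.7 CPM in the other keratinocytes, and fell short of 2-fold on day 28. Sdr16c6, a short-chain dehydrogenase of the retinol dehydrogenase kind, was 6.62-, 6.22-, 4.11- and 5.81-fold higher in control and on days 7, 28 and 60. The other genes highest by their median ratio were Krt80, a keratin of maturing epithelial cells, Psapl1, a saposin-like protein, Sprr1a, a cornified envelope precursor, Ndrg2 and Rhbg, an ammonium transporter. Krt80 was 7.04-, 5.59-, 10.6- and 7.91-fold higher and Rhbg 4.21-, 3.91-, 4.74- and 4.12-fold. Sprr1a had 1402 CPM on day 28 against 1329 CPM in the other keratinocytes, so it did not set the cells apart at that time.

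The genes lowest against the other keratinocytes were Stfa3 and Stfa2, stefin A protease inhibitors, Tgm3, a crosslinking enzyme of hair and cornified envelopes, Igfbp3, an insulin-like growth factor binding protein, and Ptgs2, the inducible cyclooxygenase. Stfa3 had 144, 92.6, 1882, 3175 and 520 CPM in Krt79 keratinocytes (control, 7, 14, 28 and 60 d), against 3018, 2070, 7834, 11010 and 5543 CPM. Tgm3 was at 0.0711, 0.281, 0.20 and 0.114 of the other keratinocytes' level in control and on days 7, 28 and 60. Igfbp3 stood at 0.154, 0.154, 0.0752 and 0.245 of it.

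Genes known for the upper follicle varied in how far they marked the cells. Gata6, a transcription factor of the sebaceous duct in mouse, had 23.7 CPM in control, 38.9 on day 7, 16.2 on day 28 and 49.9 on day 60, against 11.2, 5.75, 0.605 and 3.15 CPM in the other keratinocytes. Its ratio was thus 2.11 (1.74 to 2.56) in control and 15.8 (12.4 to 20.1) on day 60. Plet1, a surface protein of the junctional zone, had 1073, 446, 152, 391 and 261 CPM (control, 7, 14, 28 and 60 d), against 372, 192, 102, 205 and 107 CPM. Sox9, a follicle transcription factor, had 489, 416, 177, 356 and 422 CPM, against 230, 235, 77.0, 104 and 91.7 CPM. Lrig1, the stem cell marker of the junctional zone in mouse, was too thinly captured to place, with 2.70 CPM in control and 4.67 CPM on day 60, and 0 UMIs on day 14. Gata6, Plet1 and Lrig1 were chosen after their values were seen.

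UMIs of the genes that define sebocytes, the lipid cells of the attached gland, were few. Acsbg1, an acyl-CoA synthetase, gave most of the UMIs of the 8 defining sebocyte genes, whose summed level was 70.4, 85.2, 31.0, 34.7 and 88.3 CPM (control, 7, 14, 28 and 60 d), against 32.7, 11.3, 6.67, 15.8 and 20.2 CPM in the other keratinocytes. Of those 8 genes, 5, 7, 7, 5 and 1 had no UMI in the Krt79 keratinocytes of these libraries. Awat2, the wax synthase, had 3 UMIs in control and 6 on day 60. A wider list of 30 sebocyte and lipid droplet genes summed to 5703, 4379, 8909, 6459 and 3331 CPM in the same order. The other keratinocytes had 2788, 1785, 9156, 8306 and 2813 CPM, so the list was not higher in Krt79 keratinocytes on days 14 and 28. Fabp5 alone gave 4195 CPM of it in control.

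Markers of other cell types moved between libraries. The summed level of 8 fibroblast genes in Krt79 keratinocytes was 1192 CPM in control, 3006 on day 7, 9.30 on day 14, 190 on day 28 and 169 on day 60, against 1526, 2764, 74.5, 347 and 458 CPM in the other keratinocytes. On day 14, 7 of the 8 had no UMI in the 12 cells. The 13 immune genes summed to 19.8, 37.2, 484, 155 and 49.3 CPM, of which 3, 6, 10, 6 and 8 genes had no UMI. They include Ptprc, S100a8 and S100a9, which the selection limited, and without these the sum was 11.4 CPM in control, 16.5 on day 7, 25.5 on day 28 and 5.19 on day 60. On day 14, 155 UMIs were of S100a8 and S100a9 and 1 of the other 10 genes. The 8 fibroblast genes include Col1a1, Col3a1 and Dcn, which the selection limited. Without these the fibroblast sum was 242 CPM in control, 565 on day 7, 44.0 on day 28 and 63.9 on day 60. Sparc, a matrix protein made mainly by fibroblasts, gave most of that remainder, with 193 CPM in control, 460 on day 7, 34.7 on day 28 and 59.2 on day 60. The part of such transcripts in the results below was not tested.

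The Krt79 keratinocytes differed between libraries in the balance of suprabasal and basal keratins. Cells with more UMIs of the suprabasal keratins Krt1 and Krt10 than of the basal keratins Krt5 and Krt14 are called suprabasal-leaning here. The rest, ties included, are called basal-leaning, which names this keratin balance only and does not make them cells of the basal layer. Over all Krt79 keratinocytes together, the 10 basal layer genes measured outside the selection had a median log2 ratio to the other keratinocytes of -1.24. Over all genes it was 0.02. These values pool both kinds of cells and do not describe the basal-leaning cells alone. Suprabasal-leaning cells numbered 292 of 430 in control (67.9%, 63.3 to 72.3), 16 of 83 on day 7 (19.3%, 11.4 to 29.4), 3 of 12 on day 14, 22 of 52 on day 28 (42.3%, 28.7 to 56.8) and 52 of 133 on day 60 (39.1%, 30.8 to 47.9). The other keratinocytes leaned suprabasal in 16.2%, 4.11%, 18.4%, 42.0% and 19.9% of cells. The contrasts with them above thus compare unlike mixes in control and on days 7 and 60, and the part of that was not tested. Krt10, part of the selection, stood at 1406 CPM on day 7 against 5682 CPM in control, and Krt5 at 2053 CPM on day 7 against 857 CPM in control. For this reason ratios to control are also given below within suprabasal-leaning and within basal-leaning cells where they differ.

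Within the suprabasal-leaning cells of control, Krt77, a keratin known from the human eccrine duct and mouse suprabasal epidermis, had 704 CPM, against 55.4 CPM in basal-leaning cells. Krt23 had 126 against 3.36 CPM, and Elovl4, which makes the very long fatty acids of barrier lipids, 337 against 23.5 CPM. Basal-leaning cells of control held more Krt15 (3124 against 900 CPM in suprabasal-leaning cells), Sox9 (672 against 422 CPM) and Fst, the activin inhibitor follistatin (1601 against 669 CPM).

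Set against control, Krt79 keratinocytes of the irradiated libraries had more genes higher than lower on day 7 and the opposite on days 28 and 60. A gene was compared where it reached 50 CPM in either library and was counted at a ratio of 2 or more either way. A gene that reached this level in only 1 library could be higher in that library alone. On day 7, 261 (10.1%) of 2585 genes were higher and 148 (5.73%) lower. On day 28, 160 (6.56%) of 2440 were higher and 242 (9.92%) lower. On day 60, 87 (3.67%) of 2371 were higher and 283 (11.9%) lower. The median log2 ratio over all genes compared was 0.16 on day 7, -0.07 on day 28 and -0.10 on day 60. The excess of higher genes on day 7 depended on the scaling, since 173 were higher and 262 lower once the median ratio of well-counted genes was set to 1. By the mean over cells, 553 genes were higher on day 7 and 134 on day 60. The 3 comparisons share the control library, and the 14 d library, with 12 such cells, was not compared.

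Cst6, the most abundant gene of the granular and cornified layer list, was higher than control on day 7 and lower on day 28. It stood at 23566 CPM on day 7 against 4804 CPM in control, a ratio of 4.91 (4.83 to 4.98), with 6.17 within suprabasal-leaning and 5.41 within basal-leaning cells. On day 28 it was at 810 CPM, a ratio of 0.169 (0.151 to 0.187), and on day 60 at 7376 CPM, a ratio of 1.54 (1.51 to 1.57). The median over single cells was 1037 CPM in control, 14000 on day 7, 282 on day 14, 321 on day 28 and 803 on day 60. On day 60 the sum was thus above control and the median below it. A single cell gave 29.6% of the Cst6 UMIs on day 60, 12.3% on day 7 and 8.16% in control. Without the cell of most Cst6 UMIs in each library, the ratio to control was 1.18 on day 60 (1.16 to 1.21), 4.80 on day 7 and 0.149 on day 28. On day 14, 1 of the 12 cells gave 86.4% of the Cst6 UMIs, and without it the level was 701 CPM. The other keratinocytes had ratios to control of 2.88, 0.297 and 0.363 on days 7, 28 and 60. The log2 ratio of the Krt79 keratinocytes exceeded theirs by 0.77 on day 7 (0.73 to 0.81) and lay below it on day 28, the difference being -0.82 (-0.97 to -0.66).

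Much of the Cst6 came from a group of cells that were very rich in it. Cells with at least 1% of UMIs from Cst6, a limit set after the values were seen, were 36 of 430 Krt79 keratinocytes in control (8.37%, 5.93 to 11.4), 50 of 83 on day 7 (60.2%, 48.9 to 70.8), 1 of 12 on day 14, 1 of 52 on day 28 (1.92%, 0.0487 to 10.3) and 27 of 133 on day 60 (20.3%, 13.8 to 28.1). They held 69.6% of the Cst6 UMIs in control, 93.1% on day 7 and 75.8% on day 60. Of these Cst6-rich cells, 26 leaned suprabasal in control, 11 on day 7 and 9 on day 60. Among the other keratinocytes 0.399% in control, 1.75% on day 7 and 0.0844% on day 60 passed the same limit. Their depth was not like that of the rest on day 60, with a median of 1012 UMIs against 12675 UMIs, while in control it was 15361 against 13189 UMIs and on day 7 13504 against 7338 UMIs.

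The Cst6-rich cells shared further genes. Psapl1 had 389 CPM in Cst6-rich and 60.7 CPM in remaining Krt79 keratinocytes of control, 492 and 147 CPM on day 7, and 396 and 59.9 CPM on day 60. Klk7, a serine protease that loosens cell contacts at the skin surface, had 919 and 219 CPM in control, 1050 and 461 CPM on day 7, and 550 and 67.3 CPM on day 60. Atp6v1c2, a subunit of the proton pump, had 177 and 31.9 CPM in control and 259 and 90.8 CPM on day 7, and on day 60 it had 237 CPM in Cst6-rich cells, 7.89-fold the level of the rest (5.04 to 12.2). Hspb1, a small heat shock protein abundant in maturing keratinocytes, had 12830 and 1673 CPM, 8782 and 4695 CPM, and 3925 and 904 CPM in the same order. Gsdma, a pore-forming gasdermin of skin, had 107 and 10.3 CPM, 100 and 11.6 CPM, and 63.9 and 3.96 CPM. Krt1 ran the other way, with 895 and 2845 CPM in control, 21.8 and 408 CPM on day 7, and 556 and 2982 CPM on day 60. Klk7, Atp6v1c2 and Gsdma were chosen after their values were seen.

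Klk7 and Hspb1 were higher than control on day 7 and lower on days 28 and 60. Klk7 stood at 298 CPM in control, 840 on day 7, 48.6 on day 28 and 106 on day 60, against 17.1, 44.2, 3.46 and 2.84 CPM in the other keratinocytes. Hspb1 had 2944, 7331, 720 and 1149 CPM, against 734, 2406, 337 and 480 CPM. Crabp2 was 3.50-fold higher than control on day 7 (3.21 to 3.81), at 0.496 of it on day 28 (0.359 to 0.669) and at 0.999 on day 60. Psapl1 was 3.77-fold higher on day 7 (3.33 to 4.26), at 0.684 of control on day 28 (0.455 to 0.992) and at 0.890 on day 60. Atp6v1c2 was 4.12-fold higher on day 7 (3.47 to 4.88), at 0.526 on day 28 (0.260 to 0.954) and at 0.966 on day 60. Within basal-leaning cells Hspb1 had a ratio of 0.645 on day 28 and 0.990 on day 60, where the ratios over all Krt79 keratinocytes were 0.244 and 0.390.

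**Figure D3:**
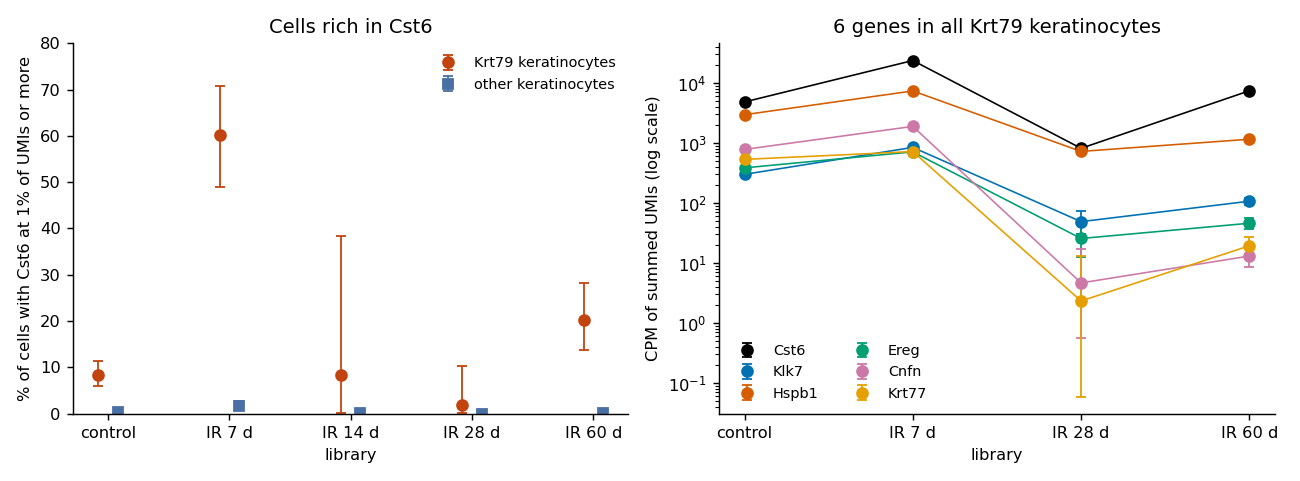
Left, share of Krt79 keratinocytes (circles) and other keratinocytes (squares) with at least 1% of UMIs from Cst6 (vertical axis, %, exact 95% binomial bars) in each library. Right, level of 6 genes in Krt79 keratinocytes (vertical axis, CPM, log scale, exact Poisson 95% bars) in the 4 libraries with at least 50 of them. Cst6, Klk7, Hspb1, Ereg and Cnfn are higher on day 7 than in control and lower on day 28, and Krt77 is lower on days 28 and 60. On day 7 1 cell gave 37.3% of the Ereg UMIs and 1 cell 34.8% of the Cnfn UMIs.

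Of 12 genes of the granular and cornified layers measured on day 7, 5 were at least 2-fold higher and none 2-fold lower, where 10.1% and 5.73% of all genes were, with a median log2 ratio of 0.45, against 0.10 in the other keratinocytes. On day 28 1 was higher and 6 lower, where 6.56% and 9.92% of all genes were (median -0.98, against -0.01 in the other keratinocytes). On day 60 1 was higher and 5 lower, where 3.67% and 11.9% were (median -0.89, against -0.24). The summed level of the list, Cst6 included, was 35829 CPM on day 7, 4784 on day 28 and 11076 on day 60, against 11626 CPM in control. These shares of all genes also stand beside the counts of each list below. Of the 32 symbols of the granular and cornified list 22 were found, and Ivl, Lor, Flg and Flg2 were among those not found. Cnfn, cornifelin of the cornified envelope, had 1880 CPM on day 7, 4.63 CPM on day 28 and 13.0 CPM on day 60, against 777 CPM in control. Its ratio to control was 2.42 on day 7 (2.30 to 2.54), 0.00596 on day 28 (2 UMIs, 0.000721 to 0.0215) and 0.0167 on day 60 (0.0108 to 0.0247). A single cell gave 34.8% of the Cnfn UMIs on day 7. Casp14, the protease that processes filaggrin, had 123 CPM on day 7, 34.7 CPM on day 28 and 20.3 CPM on day 60, against 123 CPM in control. It was chosen after its values were seen.

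Krt77 and Krt23 were the keratins lowest against control at the late times. Krt77 had 530 CPM in control, 715 on day 7, 0 on day 14, 2.31 on day 28 and 19.2 on day 60, against 5.41, 1.03, 0, 0.980 and 0.437 CPM in the other keratinocytes. The ratio was 0.00437 on day 28 (1 UMI, 0.000111 to 0.0243) and 0.0363 on day 60 (0.0255 to 0.0501). On day 7 the UMIs came from 8 cells, 41.3% of them from 1, while 205 cells of control had a Krt77 UMI. Krt23 had 93.1 CPM in control, 59.5 on day 7, 2.31 on day 28 and 1.56 on day 60, and 62.5% of its 7 d UMIs came from 1 cell. Within suprabasal-leaning cells Krt77 stood at 0.00878 of control on day 28 and 0.0634 on day 60.

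Of 8 genes of barrier lipid synthesis measured on day 28, none was 2-fold higher and 5 were 2-fold lower (9.92% of all genes), with a median log2 ratio of -1.11, against 0.33 in the other keratinocytes. On day 60 none was higher and 4 were lower (11.9% of all genes, median -1.20, against -0.39). On day 7 4 of 11 were higher (10.1% of all genes) and none lower. Elovl4 had 253 CPM in control, 241 on day 7, 87.9 on day 28 and 93.0 on day 60. Degs1, which makes the ceramide double bond, had 122, 124, 39.3 and 61.3 CPM. Within basal-leaning cells Elovl4 had ratios of 0.945 on day 28 and 2.33 on day 60, and within suprabasal-leaning cells 0.588 and 0.458. Of the spinous layer genes 5 of 13 were 2-fold lower and none higher on each of days 28 and 60, where 9.92% and 11.9% of all genes were lower.

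The genes highest against control on day 7 were Serpina1, Klk6, Kng1, Aldh1a1 and Ppp1r36. Klk6, a serine protease of the kallikrein family, had 640 CPM on day 7 against 17.6 CPM in control, a ratio of 36.4 (29.9 to 44.6), and 34 of 83 cells held its UMIs. The other keratinocytes had a ratio of 43.7 for Klk6. Kng1, kininogen, had 174 CPM on day 7 against 5.71 CPM in control. Serpina1, an inhibitor of neutrophil elastase, had 173 CPM against 3.45 CPM in control, and 45.0% of its 7 d UMIs came from 1 cell. Aldh1a1, which makes retinoic acid from retinal, had 99.2 CPM on day 7 against 3.30 CPM in control, and 76.4 CPM on day 28 and 6.75 CPM on day 60. In the other keratinocytes Aldh1a1 was at 3.76 CPM in control, 7.30 on day 7, 1.76 on day 28 and 1.16 on day 60. The log2 ratio to control was higher in Krt79 keratinocytes than in the other keratinocytes by 3.95 on day 7 (3.19 to 4.72) and 5.63 on day 28 (4.73 to 6.53).

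Of the kallikrein, cystatin and serpin genes, 6 of 13 were at least 2-fold higher on day 7 and 1 lower (10.1% and 5.73% of all genes), with a median log2 ratio of 0.83, against 0.16 in the other keratinocytes. On day 28 3 of 11 were higher and 2 lower (6.56% and 9.92% of all genes), and on day 60 3 of 11 were higher and 3 lower (3.67% and 11.9%). MGC105649, a gene the files name only so, had 409 CPM on day 7, 2.31 on day 28 and 86.2 on day 60, against 98.5 CPM in control. Defb1, an antimicrobial beta-defensin, had 309 CPM on day 7, 94.9 on day 28 and 152 on day 60, against 89.2 CPM in control. Its ratio on day 7 was 3.47 (3.04 to 3.95), against 0.712 in the other keratinocytes.

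Cyp1a1, the classic target of the aryl hydrocarbon receptor, was the lowest of the ranked genes on day 7 and on day 60. It had 98.1 CPM in control, 7.44 on day 7 and 0 UMIs on days 14, 28 and 60, against 34.2, 2.66, 0.318, 1.76 and 1.35 CPM in the other keratinocytes. The ratio was 0.0759 on day 7 (0.0345 to 0.145), and with a floor of 3 counts for the library at most 0.0708 on day 28 and at most 0.0159 on day 60. Cyp1b1, a second target, had 416 CPM in control, 65.3 on day 7, 113 on day 28 and 73.7 on day 60, against 184, 70.3, 14.2 and 18.9 CPM. It was added after its values were seen. Of 12 NRF2 and aryl hydrocarbon receptor targets measured, 7 were 2-fold lower and 1 higher on day 7, where 5.73% and 10.1% of all genes were (median -1.47, against -0.40 in the other keratinocytes). On day 28 4 were lower and none higher (9.92% and 6.56% of all genes), and on day 60 4 were lower and 1 higher (11.9% and 3.67%). The metallothionein Mt2A, which binds zinc and copper, had 423 CPM on day 7, 1009 on day 28 and 941 on day 60, against 1669 CPM in control. Gpx2, a glutathione peroxidase and the third most abundant of the list, was not lower, with ratios of 1.22, 1.54 and 1.44.

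The remaining lowest genes on day 7 were Prc1, a spindle protein, Prss23, a serine protease, Arid5b, a chromatin cofactor, and Pkib, an inhibitor of protein kinase A. Arid5b had 36.4 CPM on day 7 against 304 CPM in control, a ratio of 0.120 (0.0868 to 0.161), while the other keratinocytes had a ratio of 0.821. Pkib had 58.7 CPM against 453 CPM in control. Ccl20, a chemokine for CCR6-bearing cells and the most abundant chemokine of Krt79 keratinocytes, had 3921 CPM in control, 1087 on day 7, 679 on day 14, 1134 on day 28 and 542 on day 60, against 2111, 1961, 342, 581 and 602 CPM in the other keratinocytes. Its ratio on day 7 was 0.277 (0.262 to 0.293), against 0.929 in the other keratinocytes, and within suprabasal-leaning cells it was 0.640. Fst had 919 CPM in control, 197 on day 7, 294 on day 28 and 323 on day 60, and was added after its values were seen.

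The wound and stress genes of keratinocytes went both ways. Of 11 measured on day 7, 3 were at least 2-fold higher and 1 lower (10.1% and 5.73% of all genes). On day 28 5 of 11 were higher and 2 lower (6.56% and 9.92%), and on day 60 4 of 10 were higher and 4 lower (3.67% and 11.9%). The median log2 ratio was 0.69, -0.63 and -0.73 on days 7, 28 and 60, against -0.02, 1.25 and -0.003 in the other keratinocytes. The wound keratins Krt6a and Krt6b were not found among the symbols. Wfdc18, Stfa2, Stfa3 and Gjb2 were the 4 higher on day 60, and were also higher on day 28, with Il24. Stfa2 had 1213 CPM on day 28 and 369 CPM on day 60, against 166 CPM in control, and Stfa3 3175 and 520 CPM, against 144 CPM in control. Serpinb2, an intracellular protease inhibitor, had 987 CPM in control, 448 on day 7, 592 on day 14, 639 on day 28 and 137 on day 60. Slpi, a secreted inhibitor of elastase, had 689, 396, 118, 211 and 108 CPM in these libraries, against 119, 118, 137, 60.6 and 25.1 CPM in the other keratinocytes. Both were thus below control in every irradiated library. The epidermal growth factor receptor ligand Ereg had 383, 708, 189, 25.5 and 45.7 CPM, against 46.9, 83.0, 128, 80.3 and 33.5 CPM in the other keratinocytes, so its excess in Krt79 keratinocytes was not present on day 28. On day 7 27 of the 83 cells held an Ereg UMI, and 1 cell gave 37.3% of the UMIs and 3 cells 69.2%. On day 14 1 cell gave 98.4%. Hbegf, another ligand of that receptor, was at 2.39 of control on day 7 (2.20 to 2.58) and 0.607 on day 28 (0.479 to 0.759), against 2.30 and 1.78 in the other keratinocytes. Cldn4, a claudin of tight junctions, had 2749 CPM in control, 1928 on day 7, 722 on day 14, 738 on day 28 and 638 on day 60, against 608, 550, 427, 455 and 198 CPM.

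Cdkn1a and Mdm2, targets of the DNA damage factor p53, stood closer to control in Krt79 keratinocytes than in the other keratinocytes on day 7. Cdkn1a, the cyclin-dependent kinase inhibitor p21, had 656 CPM in control (637 to 676), 624 on day 7 (581 to 670), 152 on day 14, 380 on day 28 and 280 on day 60. In the other keratinocytes it had 447, 899, 191, 347 and 189 CPM. The ratio on day 7 was thus 0.952 (0.880 to 1.03) in Krt79 keratinocytes and 2.01 in the other keratinocytes, a difference of -1.08 on the log2 scale (-1.20 to -0.96). Within suprabasal-leaning cells it was 0.729 and within basal-leaning cells 1.08. Mdm2, the ubiquitin ligase that restrains p53, had 217 CPM on day 7 against 95.5 CPM in control, a ratio of 2.28 (1.96 to 2.63). The other keratinocytes had 345 CPM on day 7 against 80.2 CPM, a ratio of 4.30, and the difference was -0.92 on the log2 scale (-1.14 to -0.70).

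The 3 further targets Phlda3, Ccng1 and Bax, added after their values were seen, had the same pattern on day 7. Phlda3, an inhibitor of Akt, had a ratio to control of 1.75 in Krt79 keratinocytes and 3.48 in the other keratinocytes. Ccng1, cyclin G1, had ratios of 1.86 and 3.59, and Bax, which opens mitochondria in apoptosis, of 1.80 and 3.17. Of 16 targets measured on day 7, 5 were at least 2-fold higher and 1 lower (10.1% and 5.73% of all genes), and the median log2 ratio was 0.79, against 0.87 in the other keratinocytes. The sum over the 30 targets found was 10287 CPM on day 7 against 6909 CPM in control. In the other keratinocytes it was 9366 against 6411 CPM. The pattern of the named genes was thus not seen in the list as a whole. Sfn, 14-3-3 sigma, also added, was at 0.473 of control on day 7 (0.387 to 0.573), against 0.530 in the other keratinocytes. On day 28 1 of 14 was higher and none lower (6.56% and 9.92% of all genes), and on day 60 none was higher and 2 were lower (3.67% and 11.9%).

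**Figure D4:**
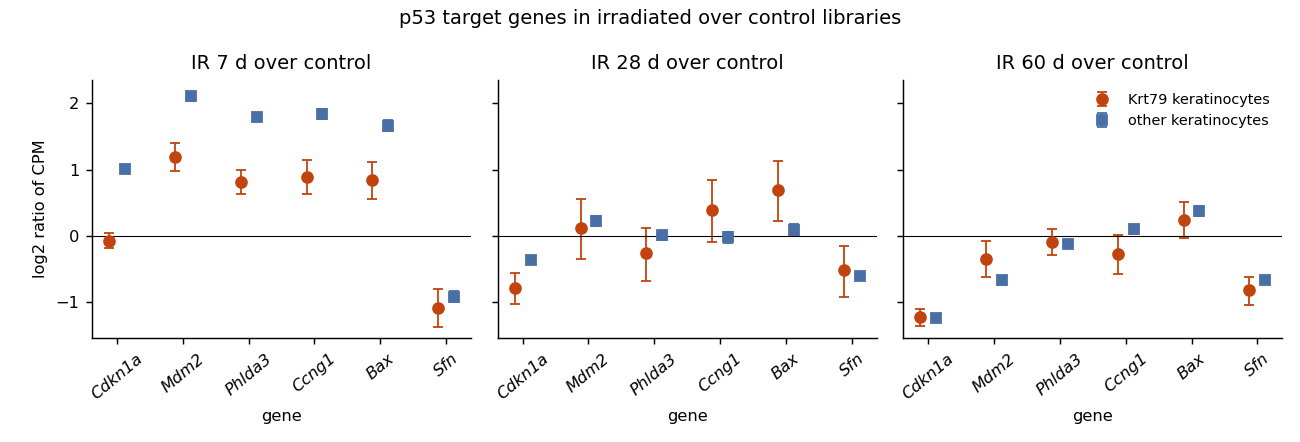
Ratio to the control library (vertical axis, log2) of 6 p53 target genes (horizontal axis) in Krt79 keratinocytes (circles) and other keratinocytes (squares), for the 7, 28 and 60 d libraries. Phlda3, Ccng1, Bax and Sfn were added after their values were seen. Bars are exact conditional 95% intervals, which cover counting error only; on day 7 the circles of Cdkn1a, Mdm2, Phlda3, Ccng1 and Bax lie below the squares, and on day 60 the Cdkn1a ratios of both classes nearly coincide.

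Wfdc18, a small secreted whey acidic protein, was the gene highest against control on days 28 and 60. It had no UMI in control, 3.31 CPM on day 7, 1721 on day 14, 243 on day 28 and 75.8 on day 60, against 0.308, 89.3, 1902, 1221 and 565 CPM in the other keratinocytes. With the floor of 3 counts for the control library, it was at least 539-fold higher on day 28 and at least 168-fold on day 60. A single cell gave 31.4% of the UMIs on day 28 and 60.3% on day 60. The level in Krt79 keratinocytes was 0.199 of that in the other keratinocytes on day 28 and 0.134 of it on day 60. On day 28 the other genes highest by the rule were 5S_rRNA, Aldh1a1, Stfa3 and Il24, and 60.0% of the Il24 UMIs came from 1 cell. On day 60 they were Gm25541, Csrp2, Vault and Lmo1, of which Csrp2, a LIM domain protein, had 73.2 CPM against 9.61 CPM in control.

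Slc6a14, an amino acid transporter, and Vbp1, a subunit of the prefoldin chaperone, were among the lowest at a single time. Slc6a14 had 84.1 CPM in control, 90.1 on day 7, 69.4 on day 28 and 2.08 on day 60. Vbp1 had 117 CPM in control, 128 on day 7, 2.31 on day 28 and 66.0 on day 60, against 124, 134, 26.7 and 60.1 CPM in the other keratinocytes, with a single UMI among the Krt79 keratinocytes on day 28.

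Id1 and Gjb2 were higher than control on days 7, 28 and 60 alike, in comparisons that share the control cells. Id1, an inhibitor of differentiation downstream of Bmp signals, had 142 CPM in control, 665 on day 7, 405 on day 28 and 715 on day 60, against 491, 795, 183 and 425 CPM in the other keratinocytes. Its log2 ratio to control was higher than that of the other keratinocytes by 1.53 on day 7 (1.39 to 1.67), 2.93 on day 28 (2.69 to 3.17) and 2.54 on day 60 (2.42 to 2.66). Gjb2, a gap junction protein, had 19.1 CPM in control, 85.2 on day 7, 204 on day 28 and 50.4 on day 60. Id1 and Gjb2 were chosen after their values were seen.

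Genes of the upper follicle list were mixed. On day 7 4 of 10 were at least 2-fold higher and 2 lower (10.1% and 5.73% of all genes), on day 28 2 of 9 were higher and 5 lower (6.56% and 9.92%), and on day 60 2 of 9 were higher and 3 lower (3.67% and 11.9%). Plet1 was lower at each time, with ratios of 0.415 on day 7 (0.380 to 0.453), 0.364 on day 28 (0.311 to 0.425) and 0.243 on day 60 (0.222 to 0.266). The other keratinocytes had Plet1 ratios of 0.517, 0.552 and 0.288. Gata6 was at 1.64 (1.16 to 2.28), 0.683 (0.270 to 1.44) and 2.10 (1.61 to 2.72) of control, and at 0.513, 0.0539 and 0.281 of it in the other keratinocytes. Sbsn was at 0.478 of control on day 28 and 0.531 on day 60, where the other keratinocytes had ratios of 1.5 and 0.962. The tight junction genes Tjp1 and Cldn3, added after their values were seen, had Tjp1 ratios of 0.473, 0.474 and 0.381 and Cldn3 ratios of 0.286, 0.134 (3 UMIs) and 0.470. Of 16 junction genes measured on day 7, 10 were above control, 1 of them at least 2-fold, and 3 were 2-fold lower (10.1% and 5.73% of all genes). On day 28 2 were 2-fold higher and 6 lower (6.56% and 9.92%), as on day 60 (3.67% and 11.9%). Their median log2 ratio was 0.22, -0.04 and -0.32, against 0.16, -0.07 and -0.10 over all genes.

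**Figure D5:**
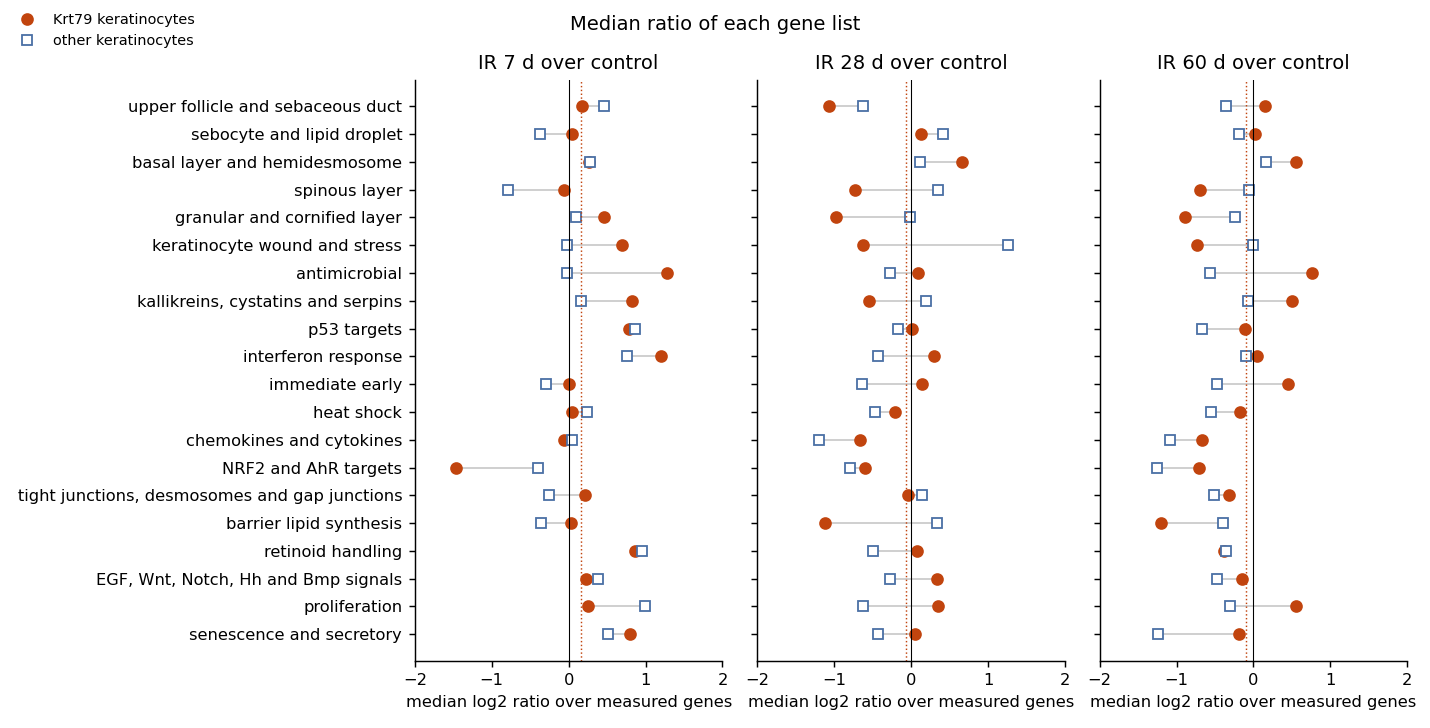
Median log2 ratio to control (horizontal axis) over the measured genes of each list (rows; lists with at least 5 measured genes at each time) in Krt79 keratinocytes (circles) and other keratinocytes (open squares), for 7, 28 and 60 d. The dotted line is the median over all genes compared in Krt79 keratinocytes; on day 7 the NRF2 and aryl hydrocarbon receptor list is lowest at -1.47, and on day 28 the barrier lipid list lies at -1.11 against 0.33 in the other keratinocytes.

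Antigen presentation genes of class I, which display peptides to CD8 T cells, were higher on day 7. Each of the 7 measured was at least 2-fold higher, where 10.1% of all genes were. Their median log2 ratio was 1.57, against 1.10 in the other keratinocytes. On days 28 and 60 only 4 were measured, so part of the 7 entered only through their day 7 level and could not be lower. Summed over the 21 genes found, the level was 4632 CPM on day 7 against 1942 CPM in control. B2m, the light chain shared by class I molecules, had 3344 CPM on day 7 against 1451 CPM in control, a ratio of 2.30 (2.22 to 2.39), and RT1-A2 341 CPM against 111 CPM. On day 28 2 of 4 were 2-fold higher (6.56% of all genes) and on day 60 none of 4. Among interferon response genes, 5 of 9 were higher and 1 lower on day 7 (10.1% and 5.73% of all genes). On day 28 1 of 6 was higher and none lower (6.56% and 9.92%), and on day 60 1 of 6 was higher and 1 lower (3.67% and 11.9%). Part of the 9 likewise entered only through their day 7 level. Ifi27, an interferon-induced protein, had 1134 CPM on day 7 against 345 CPM in control.

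The class II genes, normally of antigen-presenting cells, reached the level needed for a comparison on day 28 alone, where 4 did so. In control all 11 together summed to 36.4 CPM, so a gene could enter only by being higher on day 28. The direction of the 4 was thus set by the level required and is not a result. Of the 312 class II UMIs on day 28, 240 (76.9%) came from 1 cell, which also held 23 UMIs of Cd207, the langerin of Langerhans cells. Cd74, the class II chaperone, was at 262 CPM on day 28, and at 73.8 CPM without that cell, against 12.2 CPM in control. The other keratinocytes had 117 CPM of Cd74 on day 28, and 13 of the 52 Krt79 keratinocytes held a Cd74 UMI.

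Nr4a1, the nuclear receptor that the study followed, lay below control on day 7 and above it on day 60. It had 119 CPM in control (111 to 128), 70.3 on day 7 (56.1 to 86.9), 12.4 on day 14 (4 UMIs), 102 on day 28 (74.0 to 137) and 164 on day 60 (146 to 183). The other keratinocytes had 132, 151, 46.8, 113 and 94.9 CPM and fibroblasts 172, 308, 285, 291 and 238 CPM. Its ratio to control was 0.589 on day 7 (0.466 to 0.738), 0.854 on day 28 (0.615 to 1.16) and 1.37 on day 60 (1.20 to 1.56). Of 25 immediate early genes measured on day 7, 2 were 2-fold higher and 4 lower (10.1% and 5.73% of all genes). On day 28 1 of 25 was higher and 2 lower (6.56% and 9.92%), and on day 60 4 of 26 were higher and 2 lower (3.67% and 11.9%). Their median log2 ratio was 0.00, 0.14 and 0.44 on days 7, 28 and 60, against -0.29, -0.64 and -0.48 in the other keratinocytes. Jun, the most abundant of them, had 2969 CPM in control, 3601 on day 7, 3532 on day 28 and 4435 on day 60.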

How the data were processed

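The 5 libraries were made with the Chromium Single Cell 3′ v3 chemistry. The authors deposited raw UMI counts per barcode and gene, made with Cell Ranger 5.0.0 and STAR on Rnor_6.0, with no normalization; Seurat 3.1.1 is named in their processing notes. Rows sharing a symbol were summed, which left 30017 symbols of 32623 rows, and no positions were used. The members, lists and choices were set with earlier results of these data known.

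Barcodes were kept with at least 500 UMIs, 300 genes and at most 20% mitochondrial UMIs, which left 43408 of 49507. Total depth was 113033291 UMIs in control, 115467872 on day 7, 70073362 on day 14, 87374165 on day 28 and 139566348 on day 60. Doublets were scored against simulated doublets within each library (scikit-learn 1.9.0, expected share 6%) and left in. The calls marked 2.11, 2.65, 1.51, 2.35 and 2.14% of barcodes. On day 60 the library's own threshold marked 0.0117%, so the median threshold of the others was used. Of the members, 11 were called doublets, and 7 carry a barcode sequence found also in another library.

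UMIs were summed over cells and compared as CPM in Python 3.11.15 with numpy 2.4.6, scipy 1.17.1 and pandas 2.3.3. Levels carry exact Poisson, ratios exact conditional binomial and shares Clopper-Pearson 95% intervals; the interval of a difference of shares combines both bounds and is approximate. A count of 0 was set to 3 counts in ratios. A gene entered the counts, list medians and ranked names at 50 CPM in either class, in libraries with 50 members, and ratios of other named genes are given at any level. The script was tested on simulated data.

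Named genes are the 5 highest and 5 lowest ratios to control per library (with UMIs in at least 10% of members of the higher library and not under 0.1 of the top level among coarse classes), the 10 highest and 5 lowest median ratios to the other keratinocytes, the 3 most abundant genes of each list, and Krt79, Cst6, Sbsn, Fxyd3, Nr4a1, Cdkn1a and Mdm2. Mitochondrial, ribosomal protein and unnamed genes and the genes of the selection were left out of the ranked parts, and an item withheld for evaluation is not reported here. Of 651 symbols in 28 lists, 619 matched. Alternatives were a Krt79 limit of 0.2%, at least 2 Krt79 UMIs, doublets left out, a stricter filter (1000 UMIs, 500 genes, 10% mitochondrial), no limit on S100a8 and S100a9, median scaling, means over cells, 20 or 100 CPM, leaving out a library, and thinning to 1000 UMIs. Leaving out the member of most UMIs, or of most Cst6 UMIs, in each library, and using classes of 20 to 49 members in an alternative, were added after seeing the data.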

Additional observations from a re-analysis of the deposited data

Results flagged for a closer look

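The following 6 named genes were at least 2-fold higher than control on day 7 and at least 2-fold lower at a later time in Krt79 keratinocytes. The difference between times was not tested, since each time is 1 library. As log2 ratios to control, Cst6 was at 2.29 on day 7 and -2.57 on day 28, and Crabp2 at 1.81 and -1.01. Cnfn was at 1.27 on day 7, -7.39 on day 28 and -5.90 on day 60. Hspb1 was at 1.32, -2.03 and -1.36, and Klk7, which was chosen after its values were seen, at 1.49, -2.62 and -1.49. MGC105649 was at 2.05 on day 7 and -5.41 on day 28. Sparc, itself 1 of the genes of the fibroblast sum, had the same pattern, at 1.25 on day 7, -2.47 on day 28 and -1.70 on day 60.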

How the results depend on the processing

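Counts of genes past 2-fold depended on the level required, while the lower share of Krt79 keratinocytes in irradiated libraries was kept under each alternative to the selection. With Krt79 at 0.2% of UMIs or more, the difference from control in the share of keratinocytes was -3.50 percentage points on day 7, -6.96 on day 14, -6.46 on day 28 and -5.96 on day 60, and 35 genes were lower than in the other keratinocytes. At 20 CPM, 566 genes were higher and 290 lower on day 7, 432 and 525 on day 28, and 202 and 506 on day 60, and against the other keratinocytes 43 and 42. At 100 CPM they were 128 and 85 on day 7, 86 and 125 on day 28, and 44 and 144 on day 60, and 12 were lower than in the other keratinocytes. Median scaling gave 173 higher and 262 lower on day 7. Means over cells gave 553 higher on day 7 and 134 on day 60. Without the 7 d library 34 genes were lower than in the other keratinocytes, and without the 28 d library 47 were higher. The cause of these shifts was not tested, except that the level required sets how many genes are compared.

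Few single genes turned direction, while more crossed the 2-fold line. By means over cells 54 single results moved across it and 459 stayed on the same side. With Krt79 at 0.2% of UMIs or more 39 single results moved and 481 did not. Igfbp3 on day 7 was at 0.0843 on the log2 scale by means over cells, the median of Myh11 against the other keratinocytes at 0.25 by means over cells, and Lyz2 on day 60 at 2.75 without the limit on S100a8 and S100a9. The median of Cnfn against the other keratinocytes was -0.77 without the control library and -0.77 without the 7 d library. Requiring 2 Krt79 UMIs, leaving out called doublets, the stricter filter and leaving out the cell of most UMIs moved no count by over 1.5 times. After thinning to 1000 UMIs, Cst6 was seen in 62.4% of Krt79 keratinocytes in control, 97.0% on day 7, 41.2% on day 28 and 55.3% on day 60. Before thinning these shares were 98.4%, 100%, 80.8% and 89.5%, so detection depended on depth. No paired analysis was possible because each group is 1 library and the labels give no replicate numbers. Genes of few UMIs carry wide intervals, and the 12 cells on day 14 were not compared.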
